A study of Mus musculus with 47 samples.

Results

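The comparison was of 2 differences: that between KO-F1 and Ctrl-F1 males in spermatozoa, and the same difference in liver. The question was whether any gene or class of genes differed with the genotype of the father in both tissues or in 1 of them. It was made over the 4989 genes, of 23416 in the files, that had at least 10 counts in each of the 8 F1 libraries (4 groups of 2). The fathers were Scml2-KO males on a C57BL/6 background for KO-F1, and their wild-type littermates for Ctrl-F1. All were made by intracytoplasmic injection of testicular sperm (ICSI) into oocytes of BDF1 females, and the labels give their strain as BDF2 and their age as 8 to 12 weeks. Scml2 lies on the X chromosome, so every F1 male, KO-F1 or Ctrl-F1, is itself wild-type for the gene. Sperm libraries of KO-F2 males, also 8 to 12 weeks old, served only to class genes by their level. The KO-F2 males were sired by KO-F1 males in natural mating with C57BL/6 females. Liver was whole tissue, and spermatozoa were motile cells that swam out of the cauda epididymis. The sources do not say whether the liver and the spermatozoa of 1 replicate number came from 1 male, and 2 libraries per group is the smallest number that gives a spread.

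SCML2 is a germline protein of the Polycomb family, which keeps genes silent through chromatin during the formation of sperm. Mature spermatozoa make almost no new RNA, and what they carry is left from spermatogenesis or was taken up in the epididymis, whereas hepatocytes transcribe actively and their RNA follows feeding, stress and hormones within hours. A gene that differs in both tissues therefore differs in 2 RNA pools of very unlike origin.

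The depth of the tissues was unequal. Liver libraries held 11339729 to 14278900 counts and sperm libraries 1503733 to 2778171, and the members took 42.1% to 45.1% of liver counts and 58.9% to 75.4% of sperm counts. The smallest of a member's 8 counts was in spermatozoa for 4536 of the 4989, and 5651 genes with enough counts in liver were left out for their sperm counts. At the edge of the rule, 216 members had a smallest count of exactly 10, and 235 genes just outside had one of 9. The rule reads the counts of KO-F1 and Ctrl-F1 alike, so a gene that had nearly vanished from either group is not among the members. The identity of the tissues was clear: Alb, Apoa1 and Ttr, secreted by hepatocytes, had at most 2 counts in any sperm library, and Prm1, Prm2, Odf1 and Tnp1, made by spermatids, had 0 counts in every liver library. Scml2 itself is not a member, with 0 counts in every liver library and 0, 18, 0 and 4 in the sperm libraries.

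Other RNA moved with the sperm groups. The summed level of 77 sperm and late spermatid markers was 16.2% and 14% of counts in the Ctrl-F1 and 6.98% and 5.53% in the KO-F1 sperm libraries. That of 55 epididymal epithelium markers was 3.19% and 1.15% against 5.50% and 3.20%, of which Crisp1 was the largest in the Ctrl-F1 and Cd52 in the KO-F1 libraries. Without Cd52, a surface glycoprotein made by epididymal cells as well as lymphocytes, these sums were 2.52% and 0.908% against 2.42% and 1.99%, which overlap. Gpx3, which the epididymis also makes, is not on that list. It took 0.823% and 0.714% of counts in the Ctrl-F1 against 6.85% and 3.11% in the KO-F1 sperm libraries. Lcn5 and Spint4 of that list had at most 1 count in any sperm library. The 38 leukocyte markers summed to 0.739% and 0.365% against 3.14% and 1.32%. Without Cd52 they came to 0.0669% and 0.126% against 0.0727% and 0.103%, and Ptprc, the marker of all leukocytes, had 0 to 15 counts. The part of these RNAs in the sperm results was not tested. In bulk samples, fewer cells of a type and less RNA per cell cannot be told apart.

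The paternal difference was wider in spermatozoa than in liver, and so was the spread between replicates. The median size of the log2 fold change, KO-F1 against Ctrl-F1, was 0.70 over the members in spermatozoa and 0.19 in liver, and 4161 of 4989 members (83.4%) had the larger value in spermatozoa. The same measure between the replicates of a group was 0.60 (Ctrl-F1) and 0.52 (KO-F1) in spermatozoa, and 0.17 and 0.21 in liver. The group means differed by a median of 0.69 in spermatozoa and 0.19 in liver. The difference exceeded the larger of the 2 differences between replicates for 41.6% of members in spermatozoa and 33.1% in liver. A fold of at least 2 was seen in 1618 members in spermatozoa (718 higher, 900 lower in KO-F1) and in 51 in liver (22 higher, 29 lower), with 18 in both lists. These 18 are 1.11% of the first list, beside 1.02% of all members that were 2-fold in liver, and 35.3% of the second, beside 32.4% that were 2-fold in spermatozoa, so the overlap is near the background.

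No member passed the test of the difference between tissues. In edgeR's quasi-likelihood test, where a call needed a 2-fold or larger difference and an adjusted p (Benjamini-Hochberg) below 0.01, 0 of 4989 members were called for the difference (0.0%), 0 in spermatozoa (0.0%) and 0 in liver (0.0%), so none in both. The smallest adjusted p was 0.081, 0.0245 and 0.0889 in that order. The model of the difference takes 1 spread per gene over both tissues, so it can understate the spread of spermatozoa. An unadjusted p under 0.05 was found for 1190 members in the difference (23.9%), 1217 in spermatozoa (24.4%) and 664 in liver (13.3%). At an adjusted p under 0.05, 237 members had a 2-fold difference in spermatozoa (4.75%; 75 higher, 162 lower) and 0 in liver or in the difference. limma voom called 1 member in spermatozoa and 0 elsewhere.

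DESeq2, which the submitters' processing notes name, called more. At the same thresholds it called 152 members in spermatozoa (3.05%; 52 or 1.04% higher, 100 or 2.0% lower), 7 in liver (0.14%; 4 or 0.0802% higher, 3 or 0.0601% lower) and 188 in the difference (3.77%; 65 or 1.3% higher, 123 or 2.47% lower in spermatozoa relative to liver). No member was called in both tissues. Of the 188 called in the difference, 86 were also called in spermatozoa, 0 in liver and 102 in neither. DESeq2's model of the difference also takes 1 spread per gene over both tissues, and these calls carry that limit. A member without an adjusted p counts here as not called. DESeq2 gave an adjusted p for 2087 of 4989 members in spermatozoa and for 4312 in the difference. Aars2, Arhgef2 and Egr1, all called in the difference, had none in spermatozoa, so they could not be called there. The numbers of calls rested on single libraries. The count for the difference was 1, 1, 2 and 0 without Ctrl-F1 liver replicate 1 or 2 or KO-F1 liver replicate 1 or 2, and 158, 360, 92 and 339 without the sperm libraries in the same order. The count for spermatozoa was 10 and 63 without Ctrl-F1 replicate 1 or 2, and 0 without either KO-F1 replicate. With counts scaled to library totals instead, the median log2 fold change of all members in spermatozoa moved from -0.04 to 0.53, and the 358 DESeq2 calls were then 351 higher and 7 lower. The edgeR calls were then 212, of which 210 were higher and 2 lower. Directions in spermatozoa below are therefore relative to the middle of the members.

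The liver values of the genes that DESeq2 called in spermatozoa were spread much like those of all members. The 52 called higher had a median log2 fold change of 1.93 in spermatozoa and 0.10 in liver, and the 100 called lower had -1.90 and -0.05. Of the 152, 130 (85.5%) had a liver value under 0.5 in size, beside 90.1% of all members. Their liver groups did not overlap for 76 (50.0%, beside 46.4% of all members), of which 53 were on the same side as in spermatozoa. Beside this, 61.3% of the 1293 members with groups apart in both tissues went in the same direction. Across all 4989 genes the log2 fold changes of the tissues had a Pearson r of 0.11 and a Spearman correlation of 0.12, as a description, since genes are not independent replicates and the points of a tissue share 4 libraries.

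**Figure D1:**
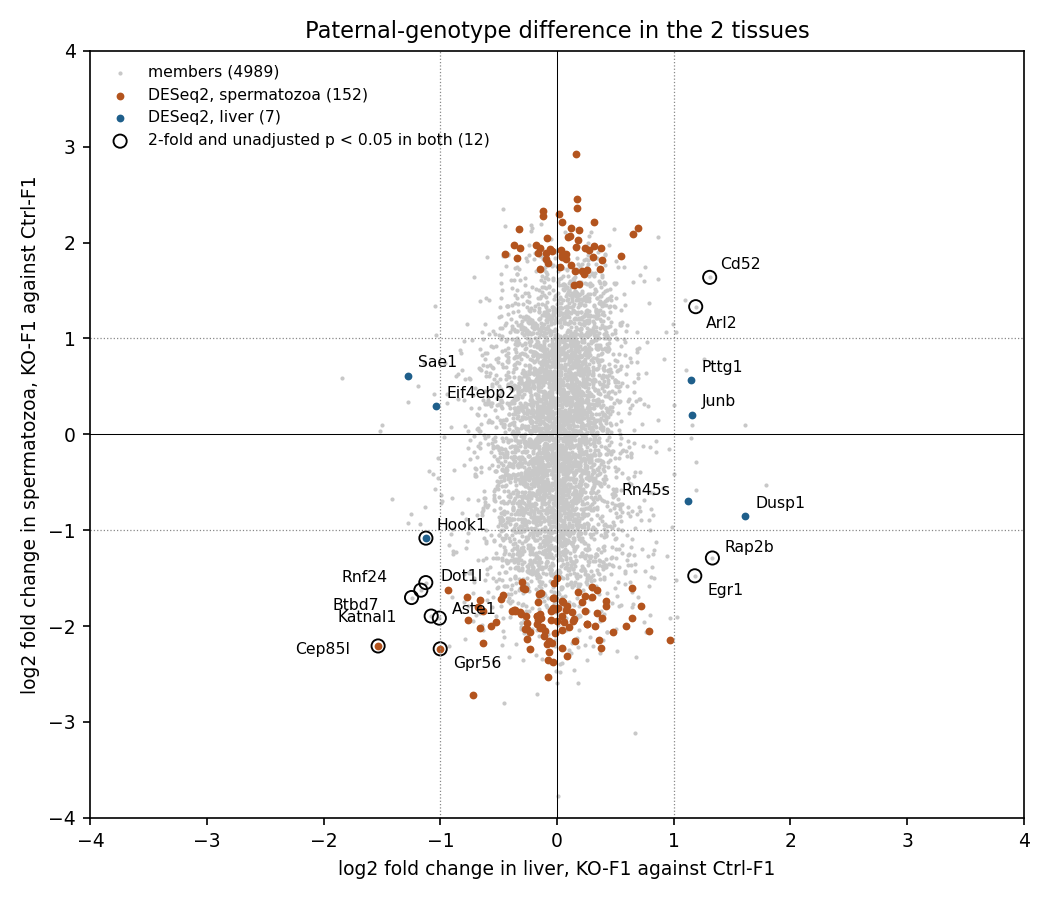
Each point is a gene with at least 10 counts in all 8 F1 libraries, placed by its log2 fold change (KO-F1 against Ctrl-F1, edgeR) in liver on the horizontal and in spermatozoa on the vertical axis. The cloud is tall and narrow, since 1618 genes lie beyond 2-fold in spermatozoa and 51 in liver, and of the 152 genes that DESeq2 called in spermatozoa 130 lie within 0.5 of 0 on the liver axis and 22 beyond.

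The nearest to a difference in both tissues were 12 members (0.241%) with a fold of at least 2 and an unadjusted p under 0.05 in each. Taken singly, these limits held for 1188 members in spermatozoa (23.8%) and 44 in liver (0.882%), so this overlap too is near the background. Without the fold limit, 190 members had an unadjusted p under 0.05 in both tissues, beside 24.4% of all members in spermatozoa and 13.3% in liver. As a description, 72.6% of these 190 went in the same direction, beside 54.6% of all members. Of the 12, 8 were lower in KO-F1 in both tissues, 2 higher in both, and 2 went in opposite directions. None had an adjusted p under 0.01 in both tissues by either tool. All values by library below are normalized values, counts divided by the total of the members (CPM) and scaled by TMM within a tissue, so that the levels of a gene may be compared within a tissue only.

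Hook1 links vesicles to microtubules and is needed to shape the sperm head. In liver it stood at 92.9 and 130.0 CPM in Ctrl-F1 and at 53.5 and 48.7 in KO-F1, and in spermatozoa at 209.0 and 227.6 against 90.1 and 116.2. Both KO-F1 libraries lay below both Ctrl-F1 libraries in each tissue. The log2 fold change was -1.12 ± 0.19 (SE) in liver (edgeR adjusted p = 0.268, DESeq2 adjusted p = 0.0016) and -1.08 ± 0.46 in spermatozoa (edgeR adjusted p = 0.143). The difference of the 2 fold changes was 0.08 ± 0.40 (edgeR adjusted p = 0.924), which does not show that they are equal. Of the 7 genes that DESeq2 called in liver, Hook1 was the only one beyond 2-fold in spermatozoa.

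Cep85l, a centrosomal protein, had the lowest liver value of the 8. It stood at 8.82 and 11.9 CPM in liver of Ctrl-F1 against 4.13 and 2.95 of KO-F1, and at 171.8 and 143.2 against 30.8 and 37.5 in spermatozoa. The groups did not overlap in either tissue. Its log2 fold change was -1.53 ± 0.37 in liver (edgeR adjusted p = 0.296) and -2.21 ± 0.52 in spermatozoa (edgeR adjusted p = 0.0245, DESeq2 adjusted p = 0.0018).

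The other 6 that were lower in both were Btbd7, Rnf24, Dot1l, Katnal1, Aste1 and Gpr56. Dot1l is the methyltransferase of histone H3 lysine 79 and Katnal1 a microtubule-severing ATPase. Their liver log2 fold changes lay between -1.25 (Btbd7) and -1.01 (Aste1), with Gpr56 at the 2-fold limit, and those in spermatozoa between -2.24 (Gpr56) and -1.55 (Dot1l). Gpr56, an adhesion receptor, was named after its values were seen, since the rule took 10 of the 12. All 6 were scarce in liver, where their highest KO-F1 value was 6.94 CPM (Dot1l), and the KO-F1 libraries were below the Ctrl-F1 libraries in both tissues for each of them.

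Arl2 and Cd52 were higher in both. Arl2, a small GTPase that works with the tubulin folding cofactors, had 6.21 and 6.56 against 15.2 and 13.9 CPM in liver, and 39.4 and 31.8 against 112.9 and 66.8 in spermatozoa. Its log2 fold change was 1.19 ± 0.29 in liver and 1.33 ± 0.59 in spermatozoa (edgeR adjusted p = 0.296 and 0.157). Cd52 was at 6.21 and 5.62 against 11.1 and 18.4 CPM in liver. In spermatozoa, where it is among the most abundant members, it had 11673 and 4393 against 34148 and 15804 CPM. The log2 fold changes were 1.31 ± 0.35 and 1.64 ± 0.66. For both genes no KO-F1 library fell within the Ctrl-F1 range in either tissue. All 12 genes kept the direction they had in each tissue when counts were scaled to library totals. With a library left out, 10 of the 12 were under 2-fold in a tissue in at least 1 case (down to -0.72 for Gpr56, -0.77 for Katnal1, -0.81 for Aste1, -0.84 for Btbd7 and -0.86 for Hook1 in liver), while Cep85l and Rap2b stayed beyond 2-fold in both.

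Egr1 and Rap2b were lower in KO-F1 spermatozoa and higher in KO-F1 liver. Egr1, an immediate early transcription factor, had 52.3 and 111.4 against 27.2 and 31.2 CPM in spermatozoa, and 6.21 and 5.93 against 18.8 and 8.65 in liver. The KO-F1 libraries lay on the low side in spermatozoa and on the high side in liver, with no overlap. Its log2 fold change was -1.48 ± 0.62 in spermatozoa and 1.18 ± 0.41 in liver, and the difference was -2.60 ± 0.68 (edgeR adjusted p = 0.0899, DESeq2 adjusted p = 0.0081). Without KO-F1 liver replicate 1 the liver value was 0.51, and without Ctrl-F1 sperm replicate 2 the sperm value was -0.84. Rap2b, a small GTPase of the Ras family that was named after its values were seen, had 22.2 and 18.4 against 6.81 and 9.99 CPM in spermatozoa and 2.29 and 3.43 against 7.32 and 7.17 in liver. The difference of its fold changes was -2.59 ± 0.61 (edgeR adjusted p = 0.0875), and it lay between -2.90 and -2.34 with any library left out.

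**Figure D2:**
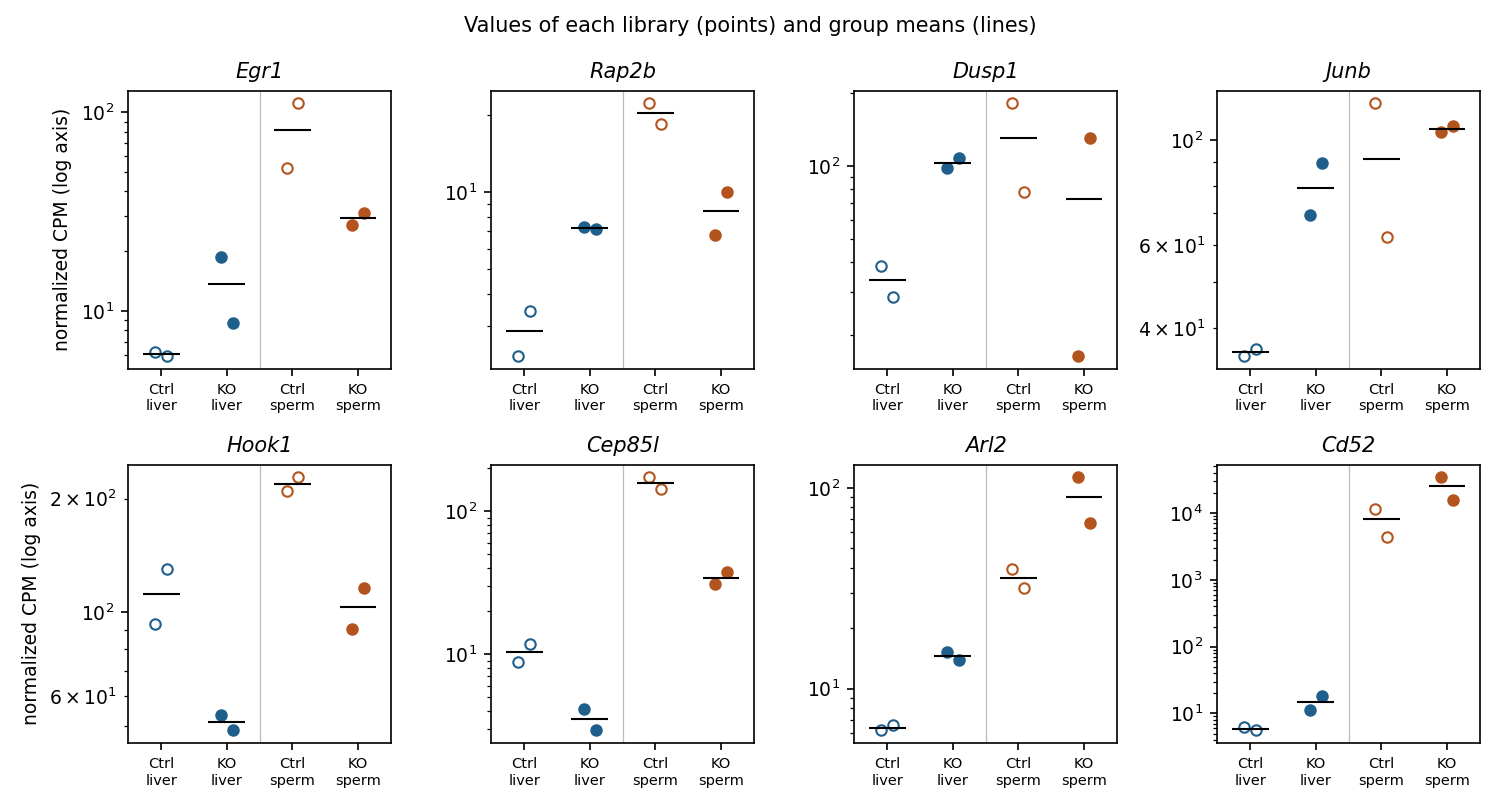
Normalized CPM on a log axis of 8 genes in each library (points, open for Ctrl-F1 and filled for KO-F1, liver in blue and spermatozoa in orange) with the mean of each group as a line. Egr1 and Rap2b move in opposite directions in the 2 tissues, Hook1 and Cep85l are lower and Arl2 and Cd52 higher in KO-F1 in both, and Dusp1 and Junb differ in liver while their sperm groups overlap.

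The genes with the smallest p in liver included a pair of immediate early genes. Dusp1, a phosphatase that switches off MAP kinases, had 38.5 and 28.9 CPM in the livers of Ctrl-F1 against 98.1 and 108.3 in those of KO-F1. Its log2 fold change was 1.61 ± 0.19 (edgeR adjusted p = 0.0889, DESeq2 adjusted p = 3.59e-08), and the groups did not overlap. In spermatozoa it had 181.8 and 78.3 against 16.4 and 129.9 CPM, and the groups overlapped. The difference was -2.44 ± 1.02 (edgeR adjusted p = 0.184), and went from -4.58 without KO-F1 sperm replicate 2 to -1.63 without KO-F1 sperm replicate 1. Junb, a subunit of the AP-1 transcription factor, had 35.0 and 36.2 against 69.2 and 89.3 CPM in liver (log2 fold change 1.15 ± 0.19, edgeR adjusted p = 0.268, DESeq2 adjusted p = 0.0016). Its sperm groups overlapped, at 119.6 and 62.4 against 104.1 and 106.8 CPM.

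The promoter of Dusp1 is shown because that gene leads the liver comparison and immediate early genes are classical targets of the cAMP response element (CRE, TGACGTCA, which reads the same on both strands). These are the 250 bases before the start site in RefSeq's annotation of GRCm38.p6, chr17:26508473-26508722 on the minus strand, with the CRE in capitals.
Dusp1: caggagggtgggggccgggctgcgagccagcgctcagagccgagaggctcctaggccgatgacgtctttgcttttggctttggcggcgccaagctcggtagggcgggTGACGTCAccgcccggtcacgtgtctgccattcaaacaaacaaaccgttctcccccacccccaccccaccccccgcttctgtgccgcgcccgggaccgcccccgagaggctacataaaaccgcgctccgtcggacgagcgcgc
The CRE was in 508 of 32851 mouse promoters of that length (1.55%), in 144 of 5014 promoters of members (2.87%), and in 1 of 23 promoters of the immediate early and stress response list (4.35%), that of Dusp1. A match is a description of the letters and not evidence of binding.

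Of the 44 genes of that list, 23 were members. In liver 5 had an unadjusted p under 0.05 and were higher (Dusp1, Junb, Egr1, Ier2 and Trib1) and 1 was lower (Ddit3, at -1.13), beside 5.93% higher and 7.38% lower of all members. In spermatozoa 1 was higher (Atf4) and 1 lower (Egr1). The median log2 fold change of the list was 0.15 in liver (0.05 to 0.19 with a library left out). In spermatozoa it was 0.20, and turned to -0.41 without KO-F1 replicate 2 and to -0.06 without Ctrl-F1 replicate 2.

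The other genes with the smallest p in liver were Sae1, Pttg1, Gna12, Rn45s and Eif4ebp2, beside Hook1. Sae1, a subunit of the enzyme that activates SUMO, had 114.3 and 109.1 against 42.4 and 49.8 CPM in liver, with a log2 fold change of -1.28 ± 0.16 (edgeR adjusted p = 0.0889, DESeq2 adjusted p = 7.93e-06). In spermatozoa its groups overlapped, at 19.3 and 69.8 against 50.4 and 83.7 CPM. Pttg1, securin, went from 40.3 and 47.5 to 95.3 and 99.8 CPM in liver (log2 fold change 1.15 ± 0.16), with overlapping groups in spermatozoa. Eif4ebp2, a brake on translation initiation, had -1.04 ± 0.19 in liver and 0.29 ± 0.69 in spermatozoa, and Gna12, a G protein subunit, -0.76 ± 0.13 and -0.14 ± 0.62. Rn45s, the ribosomal RNA precursor, took 0.636% and 0.706% of liver counts in Ctrl-F1 against 1.21% and 1.59% in KO-F1. Its shares in spermatozoa, 15.7% to 28.7%, overlapped between the groups.

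Of the members with the smallest p in spermatozoa, 7 are described, whose groups lay apart there and, for all but Clmn, overlapped in liver. Aars2, the mitochondrial alanyl-tRNA synthetase, had 85.9 and 61.2 against 4.00 and 6.87 CPM in spermatozoa, a log2 fold change of -3.77 ± 0.72 (edgeR adjusted p = 0.0245). In liver it had 44.1 and 35.7 against 39.8 and 40.5 CPM (log2 fold change 0.01 ± 0.18). The difference, -3.77 ± 0.57, had an edgeR adjusted p of 0.081 and a DESeq2 adjusted p of 5.68e-07. Its SE is below that of the sperm value because the model of the difference takes 1 spread over both tissues. The KO-F1 values rest on 10 and 11 counts, at the edge of the rule. Phkg2, the testis and liver form of the phosphorylase kinase catalytic subunit, had 2554 and 1494 against 349 and 467 CPM in spermatozoa and 22.2 and 20.0 against 23.5 and 21.3 in liver. Nadk, which makes NADP, was higher in KO-F1 spermatozoa, at 50.1 and 46.5 against 269.4 and 218.6 CPM, while its liver values of 409.1 and 504.7 against 450.9 and 388.5 overlapped. Its difference was 2.49 ± 0.38 (edgeR adjusted p = 0.081, DESeq2 adjusted p = 7.22e-06).

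Clmn, the exception in liver, was at 296.3 and 274.9 against 264.2 and 221.2 CPM. Arhgef2, a microtubule-bound exchange factor, Otub2, a deubiquitinase, Atg9a, a lipid scramblase of autophagy, and Clmn had sperm values from -3.11 (Arhgef2) to -2.06 (Clmn) and liver values from -0.23 (Clmn) to 0.67 (Arhgef2). Each of these 7 had an edgeR adjusted p of 0.0245 in spermatozoa and of 0.081 for the difference.

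Members that are more abundant in spermatozoa than in liver accounted for most of the genes that DESeq2 called lower. Each member was classed by its level in libraries outside the sperm contrast, as log2 CPM in 2 KO-F2 sperm libraries minus that in the 4 liver libraries. KO-F2 males descend from Scml2-KO males through KO-F1 males, so their sperm level is not that of a control. The 810 members at least 2 higher in spermatozoa had a median log2 fold change of -0.97 in F1 spermatozoa and 0.06 in liver, and a median difference of -0.95. Of these, 359 (44.3%) had an unadjusted p under 0.05 and were lower in KO-F1 spermatozoa, beside 14.1% of all members, and 40 were higher. DESeq2 called 79 of them lower and 3 higher (10.1% in all), so 79 of its 100 lower genes came from this class. Only the 2087 members with a DESeq2 adjusted p in spermatozoa could be called there. The share of this class among those 2087 was not counted, so its share of the calls may partly reflect which members could be called. The 679 members higher in liver had a median of 0.27 in spermatozoa and -0.03 in liver, with 14 called higher and 1 lower. The 3500 members between had 0.07 and -0.01, with 35 and 20. The same split held for the calls on the difference, of which 80 of 123 lower ones were of the first class.

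The sperm median of this class was -1.12 to -0.82 with any library left out, and -0.40 beside 0.53 for all members when counts were scaled to library totals. In liver it lay between -0.03 and 0.09. Sperm marker RNA, which made up 16.2% and 14% of Ctrl-F1 and 6.98% and 5.53% of KO-F1 sperm counts, moved the same way, and its part in the class was not tested.

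**Figure D3:**
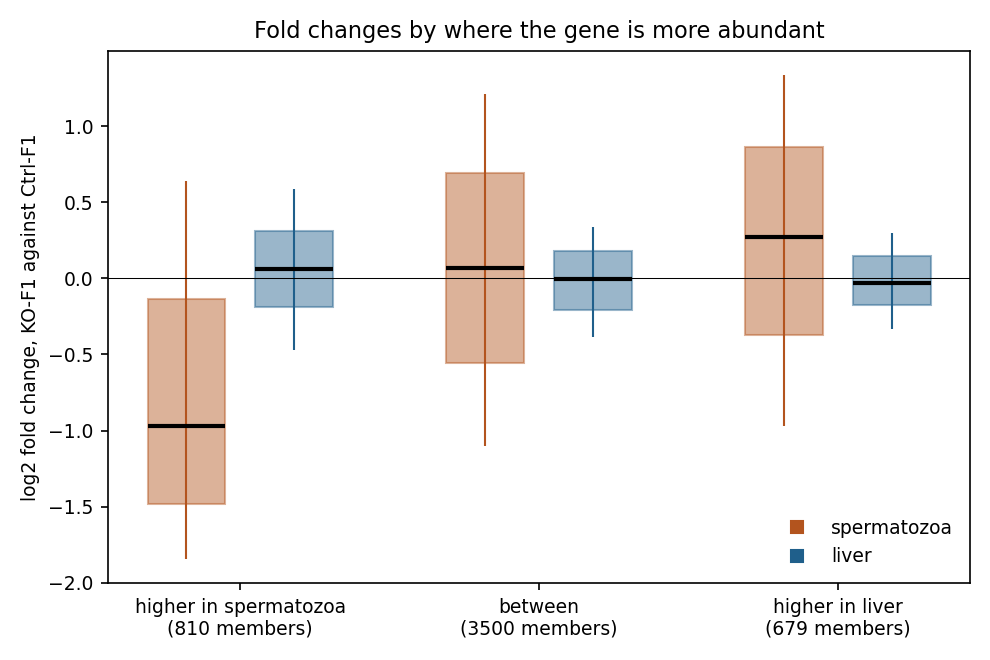
Log2 fold change (KO-F1 against Ctrl-F1) of the members in spermatozoa (orange) and liver (blue), by where the gene is more abundant. Boxes span the quartiles, the black line is the median and whiskers reach the 10th and 90th percentile, and the sperm median of the 810 genes higher in spermatozoa lies at -0.97 while the liver medians of the 3 classes lie between -0.03 and 0.06.

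Of 78 sperm and late spermatid markers 12 were members, since most have no liver counts. Of the 12, 9 had an unadjusted p under 0.05 and were lower in KO-F1 spermatozoa, and 1 was higher (Calm2). Beside this, 14.1% of all members were lower and 10.3% higher, and 44.3% of the 810 members more abundant in spermatozoa were lower. Their median was -1.45 in spermatozoa and 0.07 in liver. Odf2, of the outer dense fibres of the tail, had 3663 and 2540 against 662 and 951 CPM in spermatozoa (log2 fold change -1.94 ± 0.48, DESeq2 adjusted p = 0.0021) and 19.3 and 17.0 against 22.5 and 17.3 in liver. Ropn1l, of the radial spoke, had 793.2 and 381.9 against 134.1 and 151.1 CPM in spermatozoa and 0.04 ± 0.25 as its log2 fold change in liver. Hk1 of the glycolysis list, a hexokinase that spermatozoa anchor in the tail, had 3974 and 4346 against 1173 and 1404 CPM, a log2 fold change of -1.69 ± 0.48. The members of lists named here and below were chosen after their values were seen, most of them among the genes that DESeq2 called.

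Ribosomal proteins and oxidative phosphorylation had positive medians in both tissues with any library left out. Proteasome subunits did so with smaller ones (0.34 in spermatozoa and 0.10 in liver), but their counts at an unadjusted p under 0.05, given below, were near or under the shares of all members. Of 84 cytosolic ribosomal protein genes, which build the translating ribosome, 56 were members. In liver their median log2 fold change was 0.28, with 25 at an unadjusted p under 0.05 and higher (beside 5.93% of all members) and 0 lower. In spermatozoa it was 0.77, with 16 higher (beside 10.3%) and 0 lower. The KO-F1 libraries lay above the Ctrl-F1 libraries for 46 of the 56 in liver, where 22.8% of all members did so, and for 38 in spermatozoa (27% of all members, with 27.4% below). No member of the list was called by edgeR, and DESeq2 called Rpl14 and Rpl22 in spermatozoa. Rpl14 had 335.6 and 382.3 against 472.2 and 467.6 CPM in liver and 140.3 and 139.5 against 613.7 and 372.9 in spermatozoa, with log2 fold changes of 0.39 ± 0.13 and 1.82 ± 0.45. Ribosomal protein genes have many processed pseudogenes, and reads that fit several copies were not counted.

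The 68 members of the nuclear oxidative phosphorylation list, which encode the respiratory chain and ATP synthase, did nearly the same. Their median was 0.24 in liver, with 24 higher and 1 lower at an unadjusted p under 0.05 (beside 5.93% and 7.38% of all members). In spermatozoa it was 0.71, with 20 higher and 1 lower (beside 10.3% and 14.1%). KO-F1 lay above Ctrl-F1 for 54 in liver and 46 in spermatozoa. The exception in spermatozoa was Ndufa13 of complex I. It had 710.2 and 823.7 against 228.2 and 370.4 CPM in spermatozoa, and 411.9 and 341.4 against 482.5 and 521.0 in liver. The difference was -1.73 ± 0.43 (edgeR adjusted p = 0.0876, DESeq2 adjusted p = 0.0037). Cox8a of complex IV went with the list, at 378.7 and 399.0 against 1491 and 979 CPM in spermatozoa and 402.8 and 414.8 against 484.9 and 476.9 in liver. With any library left out, the liver medians stayed between 0.22 and 0.30 for the ribosomal proteins and between 0.21 and 0.29 for oxidative phosphorylation, and the sperm medians between 0.42 and 1.09 and between 0.51 and 1.00.

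Transcript length moved with these lists in both tissues. Taking the longest GENCODE M21 transcript of each gene, found for 4731 members (94.8%), the members were cut into 5 classes of equal size. From the shortest class (median 1314 bases) to the longest (median 6331 bases) the median log2 fold change went from 0.19 through 0.05, -0.03 and -0.11 to -0.16 in liver and from 0.41 through 0.09, -0.07 and -0.16 to -0.44 in spermatozoa. The Spearman correlation of length and fold change across genes was -0.44 in liver and -0.24 in spermatozoa, given as a description. It lay between -0.44 and -0.30 in liver and between -0.26 and -0.19 in spermatozoa with any library left out. Of the ribosomal protein members 42 of 55 were in the shortest class, with a median length of 1109 bases, and of the oxidative phosphorylation members 50 of 68, with 1135 bases. Without both lists the shortest class still had medians of 0.18 in liver and 0.33 in spermatozoa. The liver medians of the lists, 0.28 and 0.24, are thus read beside 0.18 for other short genes, and the part of length in them was not tested.

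**Figure D4:**
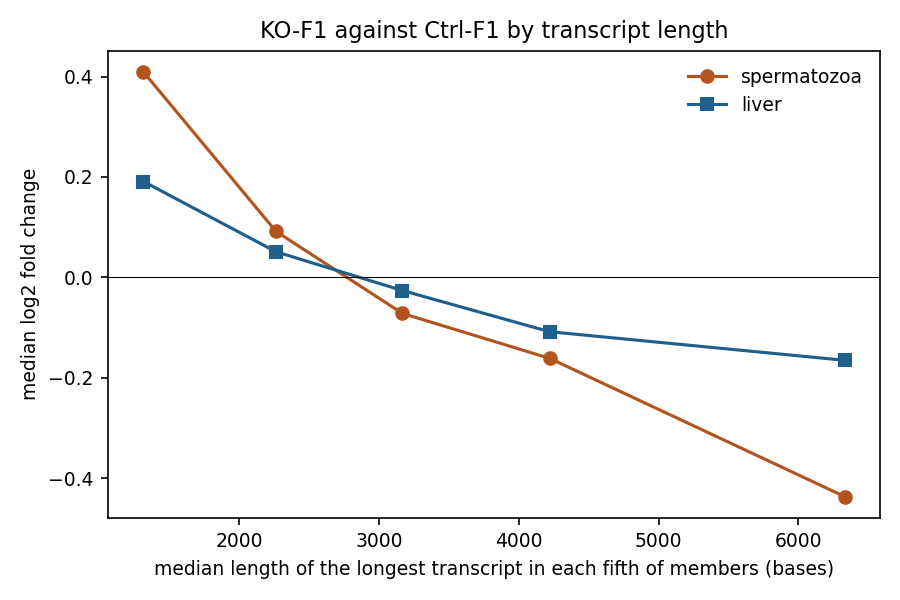
Median log2 fold change (KO-F1 against Ctrl-F1) in 5 classes of members, ordered by the length of their longest transcript, which is given on the horizontal axis as the median of the class in bases. Both lines fall from short to long transcripts, from 0.41 to -0.44 in spermatozoa (orange) and from 0.19 to -0.16 in liver (blue).

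Promoter sequence was not used to choose these lists. The core of the binding motif of ETS factors, CCGGAAG on either strand, was in 13 of 46 promoters of ribosomal protein members (28.3%), 11 of 61 of oxidative phosphorylation members (18%), 796 of 5014 promoters of all members (15.9%) and 2269 of all 32851 (6.91%), so the share in the oxidative phosphorylation list was near that of the members. Promoters were matched for 39 of 56 and 56 of 68 genes, and for 3821 of 4989 members. The NRF1 motif was in 0.0%, 3.28%, 2.03% and 0.782%, and AAGATGGCG, that of YY1, in 0.0%, 1.64%, 1.5% and 0.606%. The 2 promoters below, 1 from each list, show where the core lies in genes with a low liver p, and were picked after their values were seen. They are the 250 bases before the start site in RefSeq's GRCm38.p6, with the core in capitals, Rps26 at chr10:128626507-128626756 on the minus strand and Ndufb7 at chr8:83566508-83566757 on the plus strand.
Rps26: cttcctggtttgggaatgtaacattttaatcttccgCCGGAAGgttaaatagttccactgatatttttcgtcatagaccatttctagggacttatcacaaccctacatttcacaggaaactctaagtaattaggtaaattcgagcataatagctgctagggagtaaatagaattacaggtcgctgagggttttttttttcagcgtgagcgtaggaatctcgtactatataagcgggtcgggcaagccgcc
Ndufb7: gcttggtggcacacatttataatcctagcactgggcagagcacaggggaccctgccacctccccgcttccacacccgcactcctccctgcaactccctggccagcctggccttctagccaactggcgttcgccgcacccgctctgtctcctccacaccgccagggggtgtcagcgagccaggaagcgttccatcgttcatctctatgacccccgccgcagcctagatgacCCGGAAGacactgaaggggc
Rps26 had 261.7 and 233.4 against 334.4 and 344.8 CPM in liver and 99.5 and 72.2 against 285.8 and 149.9 in spermatozoa, so its groups did not overlap in either. Ndufb7 was apart in liver only, at 197.3 and 184.7 against 251.5 and 270.5 CPM.

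Heat shock proteins and chaperonins, which fold other proteins, were on the low side in liver. Of 33 members 11 had an unadjusted p under 0.05 and were lower in KO-F1 liver (beside 7.38% of all members), 0 were higher, and the KO-F1 libraries lay below the Ctrl-F1 libraries for 19 (beside 23.5%). The liver median was -0.24, and -0.23 to -0.21 with any library left out. In spermatozoa 6 were lower and 1 higher, beside 14.1% and 10.3% of all members. The sperm median was -0.19, and it changed sign when a library was left out (-0.32 to 0.19) and with library totals (0.39, beside 0.53 for all members). Hsp90aa1, the inducible HSP90, had 172.5 and 170.3 against 123.1 and 81.7 CPM in liver and 456.8 and 164.0 against 90.9 and 138.7 in spermatozoa, lower in both with no overlap. Its log2 fold changes were -0.74 ± 0.19 and -1.44 ± 0.49 (edgeR adjusted p = 0.296 and 0.0717). Hspa2 and Hspa4l, chaperones of the male germline, were called by DESeq2 in spermatozoa at -1.96 ± 0.47 and -1.97 ± 0.44, with -0.52 ± 0.45 and -0.26 ± 0.25 in liver.

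The unfolded protein response and secretion list was also low in liver, with a median of -0.11. There 11 of 46 members were lower and 0 higher at an unadjusted p under 0.05, beside 7.38% and 5.93% of all members. Hspa5, the chaperone of the endoplasmic reticulum, had 2274 and 2200 against 1579 and 1781 CPM in liver. In spermatozoa the list had a median of -0.33 (0.22 with library totals). The 4 lower and 2 higher of its 46 members there are smaller shares than the 14.1% and 10.3% of all members.

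Glutathione and redox genes and ubiquitin and autophagy genes had high medians in spermatozoa and medians near 0 in liver. The 32 members of the first had a median of 1.00 in spermatozoa, with 16 higher and 2 lower at an unadjusted p under 0.05 (beside 10.3% and 14.1% of all members), and 0.08 in liver, with 2 and 1 (beside 5.93% and 7.38%). The median difference was 1.02, and 0.85 to 1.18 with any library left out. Gpx3, a secreted glutathione peroxidase that the epididymis makes in quantity, had 14293 and 13134 against 76197 and 40554 CPM in spermatozoa (log2 fold change 2.09 ± 0.73, DESeq2 adjusted p = 0.0017) and 5.23 and 3.59 against 5.25 and 8.65 in liver. Gstm7, a glutathione transferase, had 432.4 and 478.5 against 1587 and 1096 CPM in spermatozoa and 159.9 and 152.7 against 181.1 and 164.4 in liver. Gstm5, a germline member of the same family, went the other way, with 5822 and 8054 against 2409 and 2902 CPM in spermatozoa (log2 fold change -1.39 ± 0.51). The 46 ubiquitin and autophagy members had a median of 0.50 in spermatozoa, with 10 higher and 3 lower, and -0.04 in liver, with 2 and 3. Skp1a, of the SCF ubiquitin ligase, had 118.1 and 89.3 against 384.3 and 354.1 CPM in spermatozoa (log2 fold change 1.83 ± 0.45) and 0.07 ± 0.15 in liver.

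Metabolic enzymes were divided. The 29 glycolysis and tricarboxylic acid cycle members had a median of 0.25 in spermatozoa and -0.12 in liver, and the 37 of fatty acid and sterol metabolism -0.26 (0.28 with library totals, and -0.20 to 0.12 with a library left out) and -0.10 (-0.15 to 0.07). Fbp1, the gluconeogenic fructose-bisphosphatase, had 289.2 and 199.5 against 28.8 and 75.6 CPM in spermatozoa (log2 fold change -2.24 ± 0.52, DESeq2 adjusted p = 0.0032) while its liver groups overlapped (-0.23 ± 0.22). Acly, which makes cytosolic acetyl-CoA, was higher in KO-F1 spermatozoa at 111.7 and 86.9 against 325.5 and 386.6 CPM, and its liver groups overlapped. The difference was 2.21 ± 0.55 (edgeR adjusted p = 0.0876, DESeq2 adjusted p = 0.0093). Acsl4, an acyl-CoA ligase for arachidonate, had the largest positive difference of all members, 2.86 ± 0.46 (edgeR adjusted p = 0.081, DESeq2 adjusted p = 3.54e-05), with 14.3 and 19.6 against 80.1 and 91.2 CPM in spermatozoa and 110.4 and 144.9 against 102.5 and 82.9 in liver.

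The 14 leukocyte members had a median of -0.63 in spermatozoa (-0.06 with library totals) and 0.41 in liver, where it was -0.34 without KO-F1 replicate 2 and 0.20 to 0.92 without any other library. All 14 had a positive liver value, yet only Cd52 had an unadjusted p under 0.05 there, and the liver groups overlapped for the other 13. In spermatozoa 1 was higher (Cd52) and 2 lower (H2-Ab1 and Csf1r). The 11 interferon response members had -0.04 (0.53 with library totals) and 0.44 (0.21 to 0.68 with a library left out), with 3 higher in liver (Ifi27l2a, Irf3 and H2-D1). H2-D1, a class I molecule that presents peptides, had log2 fold changes of 0.69 in liver and -0.83 in spermatozoa.

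The sperm medians of most other lists changed sign with a library left out. Polycomb and related chromatin regulators (26 members) had medians of 0.17 in spermatozoa (-0.02 to 0.44 with a library left out) and -0.03 in liver, with 2 higher and 2 lower, and 1 and 1, at an unadjusted p under 0.05. Translation factors (38) had 0.05 (-0.11 to 0.16) and -0.06, and circadian clock genes (10) 0.12 (-0.47 to 1.40) and -0.10 (-0.18 to 0.07). Proteasome subunits (34), at 0.34 and 0.10, kept their sign. At an unadjusted p under 0.05, 1 was higher and 3 lower in spermatozoa, beside 10.3% and 14.1% of all members. In liver these counts were 3 and 2, beside 5.93% and 7.38%, so they were near or under the shares of all members. Markers of endothelial, stellate and fibroblast cells (11) had -0.36 (0.18 with library totals, -1.11 to 0.43 with a library left out) and 0.08. The 8 epididymal members had -0.11 (0.44 with library totals, -0.33 to 0.37 with a library left out) and 0.22. The hepatocyte list (3 members) had -0.65 and 0.07, and the 1 erythroid member -0.57 and -0.15. For all members the medians were -0.04 and -0.00.

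**Figure D5:**
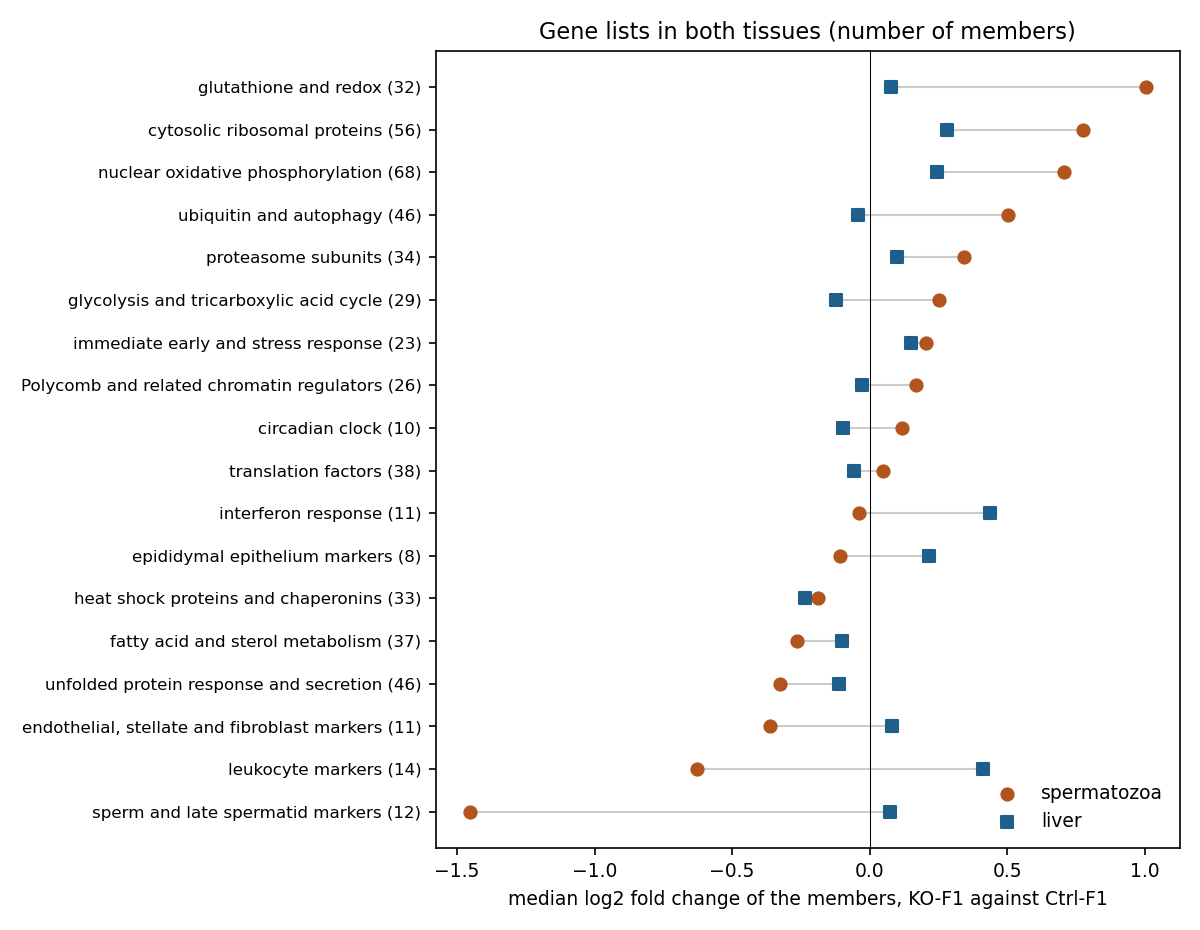
Median log2 fold change (KO-F1 against Ctrl-F1) of the members of each gene list with at least 8 members, in spermatozoa (orange circles) and liver (blue squares), with the number of members in brackets. Ribosomal protein and oxidative phosphorylation lists lie above 0 in both tissues, glutathione and redox genes at 1.00 in spermatozoa and 0.08 in liver, and sperm markers at -1.45 and 0.07.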

How the data were processed

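The files hold raw counts per gene symbol, which the authors deposited for 10 RNA libraries. The authors aligned single-end 75 bp reads to GRCm38 with Hisat2 2.1.0 and counted uniquely aligned reads with featureCounts. The annotation and strand setting are not given in the sources used here, so overlapping and antisense genes are uncertain. Liver libraries were stranded mRNA (TruSeq) and sperm libraries amplified cDNA (SMART-Seq v4), so tissue and kit cannot be told apart, and without molecular identifiers a PCR copy counts as a molecule. The 2 symbols on more than 1 line were left out.

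The difference between tissues was tested in 1 edgeR 4.0.16 model of the 4 groups (R 4.3.3, TMM, quasi-likelihood), and each tissue in a model of its own, over all 4989 members. The common biological coefficient of variation, a measure of the spread between replicates, was 0.38 in spermatozoa, 0.15 in liver and 0.28 in the model of the difference. That model averages the spread of both tissues, so the SE of a difference can be smaller than that of its sperm value. Calls needed a 2-fold or larger difference and an adjusted p (Benjamini-Hochberg) below 0.01. Scripts were tested on simulated data. Replicates are separate samples in the labels. They differed by more than counting noise, so none was counted as a duplicate. The p-values measure only the spread between samples. Alternatives were DESeq2 1.42.0, limma voom 3.58.1, other filters, scalings and thresholds, thinned counts, a replicate block and leaving out each library. Adjusted p-values of DESeq2 existed for 2087 members in spermatozoa and 4312 for the difference.

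The genes named were the 8 with the smallest p in each tissue and the 10 with a 2-fold difference and an unadjusted p under 0.05 in both with the smallest larger p, where KO-F1 libraries lay on 1 side in at least 1 tissue, then up to 5 called members of each list, 7 tissue markers and Scml2. With 0 edgeR calls, list members were taken from those DESeq2 called. Members and gene lists were chosen with earlier results of these data known. A result for 1 of these genes is not reported here. The ChIP-seq and embryo samples were not used here.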

Additional observations from a re-analysis of the deposited data

Results flagged for a closer look

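Egr1 and Rap2b are given here because every KO-F1 library lay below the Ctrl-F1 libraries in spermatozoa and above them in liver. The difference of the log2 fold changes, spermatozoa minus liver, was -2.60 for Egr1 (edgeR adjusted p = 0.0899) and -2.59 for Rap2b (edgeR adjusted p = 0.0875), so neither passed the test of the difference at an adjusted p under 0.01. DESeq2 called the difference of Egr1 (adjusted p = 0.0081) and gave no adjusted p for Rap2b. KO-F1 was above Ctrl-F1 in 2 of 2 liver libraries and below it in 2 of 2 sperm libraries for both. Of all members, 500 had groups that stood apart in both tissues on opposite sides, 10.0%.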

How the results depend on the processing

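The count of genes called in both tissues was 0 under every alternative run. Where the count in 1 tissue was itself 0, as in the main test, this was fixed in advance and does not show that no gene is shared. That for the difference between tissues was 0, with 188 by DESeq2, 55 from the 2 single-tissue fits combined and 5 with a replicate block across tissues. In spermatozoa, where the count was 0, it was 152 by DESeq2, 1 by limma voom, 30 with no filter, 131 with at least 50 counts (86 higher, 45 lower), 90 with at least 10 counts in that tissue only (chosen after seeing the data), 212 with library totals, 46 with a replicate block, 237 at an adjusted p under 0.05 and 0 to 110 with a library left out (26 and 110 without Ctrl-F1 replicate 1 and 2). In liver it was 0, with 7 by DESeq2, 6 with no filter, 3 with a replicate block and 0 to 51 with a library left out (1, 51 and 17 without Ctrl-F1 replicate 1, KO-F1 replicate 1 and KO-F1 replicate 2). With counts thinned to the smallest library, DESeq2 called 30 in the difference, 136 in spermatozoa and 1 in liver, and without a liver library 2 to 14 in liver. The cause of these shifts was not tested.

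Deviations of same-numbered libraries correlated across genes at -0.18 in liver and 0.02 in spermatozoa. Between the tissues of Ctrl-F1 and KO-F1 they correlated at 0.08 and 0.01. These values cannot settle whether replicate numbers pair the samples, since noise of single libraries and unlike tissues could hide a pairing. The crossed block, added after seeing the data, gave 0 calls.

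The difference of fold changes turned its sign for genes where it was near 0. With library totals it was 0.0857 for Pttg1, 0.14 for Btbd7, 0.13 for Rnf24 and 0.23 for Dot1l, and with thinned counts 0.23 for Cep85l, 0.47 for Btbd7 and 0.21 for Dot1l. With a library left out it ranged from -1.65 to 0.0173 for Pttg1, -0.18 to 0.30 for Hook1, -1.04 to 0.27 for Btbd7, -0.87 to 0.26 for Rnf24, -0.32 to 1.25 for Cd52, -0.83 to 0.22 for Dot1l and -0.28 to 0.50 for Arl2. Sperm depth limits what can be called: a fold against 10 counts carries wide counting error.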

Other observations

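The X chromosome carries Scml2, and every F1 male has it from the oocyte and not from the father. Its members had a median above that of each autosome in KO-F1 spermatozoa. The 98 X-linked members had a median log2 fold change of 0.64 in KO-F1 spermatozoa, beside medians of -0.23 to 0.17 on the 19 autosomes, and -0.01 in liver. With any library left out the sperm median was 0.52 to 0.84. The KO-F1 libraries lay above the Ctrl-F1 libraries for 50 of the 98 in spermatozoa (27% of all members) and below for 6 (27.4%). Of the X-linked members 31 had an unadjusted p under 0.05 and were higher in KO-F1 spermatozoa and 1 was lower, beside 10.3% and 14.1% of all members. DESeq2 called 4 higher in spermatozoa (Fhl1, Mid1ip1, Pja1 and Sat1), beside 1.04% of all members, and 5 higher in the difference (Acsl4, Fhl1, Hnrnph2, Morf4l2 and Pdha1), beside 1.3%, and 0 lower in either. By level, 13 of the 98 were higher in spermatozoa, 68 between and 17 higher in liver. Pdha1, the somatic form of the pyruvate dehydrogenase subunit, had 55.1 and 56.3 against 107.7 and 111.2 CPM in spermatozoa, and 248.3 and 244.3 against 190.7 and 172.8 in liver. This pattern was noticed in the data, and no test of it was run.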
